A study of Mus musculus with 12 samples.

Results

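The STAT (signal transducer and activator of transcription) genes Stat2, Stat3, Stat4, Stat5a, Stat5b and Stat6 were followed in mouse embryonic fibroblasts (MEFs) of the C57BL/6 strain, cells that make connective tissue. Every probe set that the platform annotation lists with 1 of these 6 genes was taken, which gave 13 of the 45037 probe sets tested: 4 for Stat3, 1 for Stat4, and 2 each for Stat2, Stat5a, Stat5b and Stat6. A probe set is a group of short array probes read together as a single value. The deposited expression values were read as log2 from their range and from the RMA method named in the submitters' processing notes, since no label states the base, and folds rest on that reading. Levels are compared between groups for the same probe set only.

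Total RNA was hybridised to 12 Affymetrix arrays in 6 groups of 2 biological duplicates. The groups were Stat5-null MEFs that received a STAT5A vector by retroviral infection, given growth hormone for 120 minutes (S5 + GH) or unstimulated (S5); Stat5-null MEFs given growth hormone for 120 minutes (KO + GH) or unstimulated (KO); and wild-type MEFs given growth hormone for 120 minutes (WT + GH) or unstimulated (WT). S5 and KO cells share the loss of both Stat5 genes. No label names a vehicle for the hormone, a KO group with an empty vector, or how many cell preparations a genotype rests on, so genotype and cell preparation cannot be told apart.

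STAT proteins wait in the cytoplasm until a JAK kinase, bound to an activated cytokine or hormone receptor, phosphorylates them on a tyrosine. They then pair up, enter the nucleus and bind DNA near their target genes, among which are inhibitors of the same pathway such as Cish and the Socs genes. Growth hormone acts through its receptor, encoded by Ghr, and the kinase JAK2, and STAT5A and STAT5B are the STATs best known for carrying its signal. STAT3 is known for signals of the interleukin 6 family, STAT2 for type I interferon, STAT4 for interleukin 12 and STAT6 for interleukins 4 and 13.

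Of all probe sets on these arrays, 54.3 percent had a mean below 4, where values pile up and differences are compressed. A level below 4 is therefore called low, a fold against a group with both arrays below 4 is computed against 4 and given as "at least", and no fold is given where both groups lie there. Of the 13 STAT probe sets, 9 rose above 4 on at least 1 array of a group and 4 stayed below it on all 12 arrays. Array medians lay between 2.86 and 3.0, and duplicates correlated across 20566 probe sets with r between 0.989 and 0.995. Differences were tested with limma over all 45037 probe sets with Benjamini-Hochberg adjustment at 0.05, and precision is limited by having 2 arrays in each group.

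The cells of the 3 genotypes differed in cell type markers. The mean of 14 macrophage markers lay between 3.14 and 3.42 on the 4 S5 arrays and between 3.85 and 4.21 on the 4 KO arrays, against 9.25 to 10.77 on the 4 WT arrays. Markers below 4 on every array numbered 11 in S5 and 8 in KO (Ptprc, Adgre1, Fcgr3 and Mrc1 among them), against 1 (Itgam) in WT. The remaining markers rose above 4 on at least 1 array of S5 or KO cells. Without hormone, KO minus WT was -2.85 for Cd68 and -3.02 for Cd14, and S5 minus WT was -3.08 and -3.77. Lyz2 and Cd53 also separated S5 from KO cells, with S5 minus KO at -3.31 and -2.97. The mean of 10 fibroblast markers was 10.87 to 11.38 on S5 arrays and 12.66 to 12.75 on KO arrays, against 13.05 to 13.19 on WT arrays. The members of that list split. Without hormone, S5 minus WT was -9.91 for Thy1, -3.53 for Lum, -2.91 for Dcn, -1.15 for Pdgfra and -0.87 for Pdgfrb. Fn1 was 0.12 higher in S5, and these differences passed the threshold. Col1a1, Col1a2, Col3a1 and Vim, between -0.11 and 0.14, did not pass. All 8 lymphocyte markers measured were below 4 on every array. For Gapdh, the control probe set at the 3′ end exceeded that at the 5′ end, which depends on how long the labelled RNA is, by 1.44 to 1.62 on S5 arrays and 0.94 to 1.11 on KO arrays, against 0.89 to 1.22 on WT arrays. Sex-linked transcripts, chosen after their values were seen, separated the cells too: the Y-linked Eif2s3y stood at 2.17 to 2.23 in S5 and 2.18 to 2.28 in KO, against 12.14 to 12.47 in WT, and Xist at 10.51 to 11.22 in S5 and 10.33 to 10.64 in KO, against 2.57 to 3.08 in WT. In RNA from a whole culture, fewer cells of a type and less RNA per cell cannot be told apart, and the part of these differences in the genotype results below was not tested.

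The sequence upstream of Stat2 is shown because Stat2 was the member that rose with growth hormone in S5 cells and its window held 2 of the 3 motifs searched. It covers the 250 bases before the RefSeq start of Stat2 on the + strand of GRCm38.p6, chr10:128270248-128270497, 5′ to 3′, and the capitals mark the matches.
Stat2: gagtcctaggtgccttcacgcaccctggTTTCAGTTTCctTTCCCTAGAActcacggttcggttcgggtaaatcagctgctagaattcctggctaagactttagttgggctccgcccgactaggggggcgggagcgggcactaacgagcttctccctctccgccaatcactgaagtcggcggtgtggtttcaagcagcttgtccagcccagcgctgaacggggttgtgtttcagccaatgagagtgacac
The run TTTCAGTTTC, 222 to 213 bases before the start, matched TTTCNNTTTC, the core of an interferon response element, and TTCCCTAGAA, 210 to 201 bases before it, matched TTCNNNNGAA, the spacing known for STAT6. Of 32851 mouse windows of the same length, 2.98 percent held TTTCNNTTTC and 5.85 percent held TTCNNNNGAA. The spacing known for the other STATs, TTCNNNGAA, was in 7.02 percent of windows and in 0 of the 9 windows of the 6 STAT genes. A Stat4 window also held the interferon core on the opposite strand, 97 to 88 bases before its start. On the gene's own strand it reads GAAAGTGAAA. Both strands were searched, and a match is only a description of these letters.

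Stat5a and Stat5b are neighbouring, closely related genes on chromosome 11, and a stretch from a RefSeq start window of each is shown because these are the deleted genes. Each gene has 2 such windows, and the longest runs shared by the 4 pairs of windows were 16, 11, 9 and 7 bases. The pair with the longest run is shown, cut to the 60 bases around it, so the stretches were chosen for their likeness and do not measure how alike the windows are as a whole. The capitals mark that run, and 51 of the 60 positions are identical between the stretches. Stat5a covers chr11:100860415-100860474 on the + strand, and Stat5b chr11:100822571-100822630 on the - strand, both of GRCm38.p6.
Stat5a: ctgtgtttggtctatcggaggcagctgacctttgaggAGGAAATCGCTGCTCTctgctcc
Stat5b: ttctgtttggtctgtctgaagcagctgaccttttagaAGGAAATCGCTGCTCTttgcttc
The probes' own sequences were not used here, so which part of a transcript a probe set reads is not stated.

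Stat5a was read by separate probe sets in the wild-type and the vector-carrying cells. Probe set 1421469_a_at stood at 2.36 and 2.34 in S5 + GH, 2.40 and 2.42 in S5, 2.43 and 2.38 in KO + GH, and 2.41 and 2.47 in KO cells, against 12.11 and 12.39 in WT + GH and 11.51 and 11.45 in WT cells. It was thus high on the 4 WT arrays alone, at least 179-fold lower in KO than in WT cells without hormone and at least 304-fold lower with it (adjusted p = 3.88e-09 and 1.40e-09). Probe set 1450259_a_at stood at 9.04 and 9.14 in S5 + GH and 9.86 and 9.90 in S5 cells, against 2.25 and 2.19 in KO + GH, 2.21 and 2.25 in KO, 2.38 and 2.33 in WT + GH, and 2.25 and 2.23 in WT cells. The vector signal was at least 58.8-fold above KO without hormone and at least 34.0-fold above it with hormone (adjusted p = 3.43e-10 and 4.34e-10). The vector and the wild-type transcript were read by different probe sets, so their amounts cannot be set against each other with these values.

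Stat5b, the other deleted gene, was high in WT cells on probe set 1422103_a_at. The S5 and KO arrays lay between 1.93 and 2.01 with and without hormone, against 9.33 and 9.39 in WT + GH and 9.04 and 8.98 in WT cells. KO cells were at least 32.3-fold lower than WT without hormone and at least 41.0-fold lower with it (adjusted p = 3.44e-10 and 1.43e-10). S5 minus KO was -0.02 on this probe set without hormone (SE 0.04, adjusted p = 0.782), while the vector signal of Stat5a stood near 9.88 in the same S5 cells. The remaining Stat5b probe set, 1422102_a_at, was low on all arrays, at 1.87 to 1.97 in S5 and KO groups against 2.17 to 2.60 in WT groups. It counts among the probe sets called for KO against WT (-0.58 without hormone, adjusted p = 0.00306), though both groups lay in the low range.

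**Figure D1:**
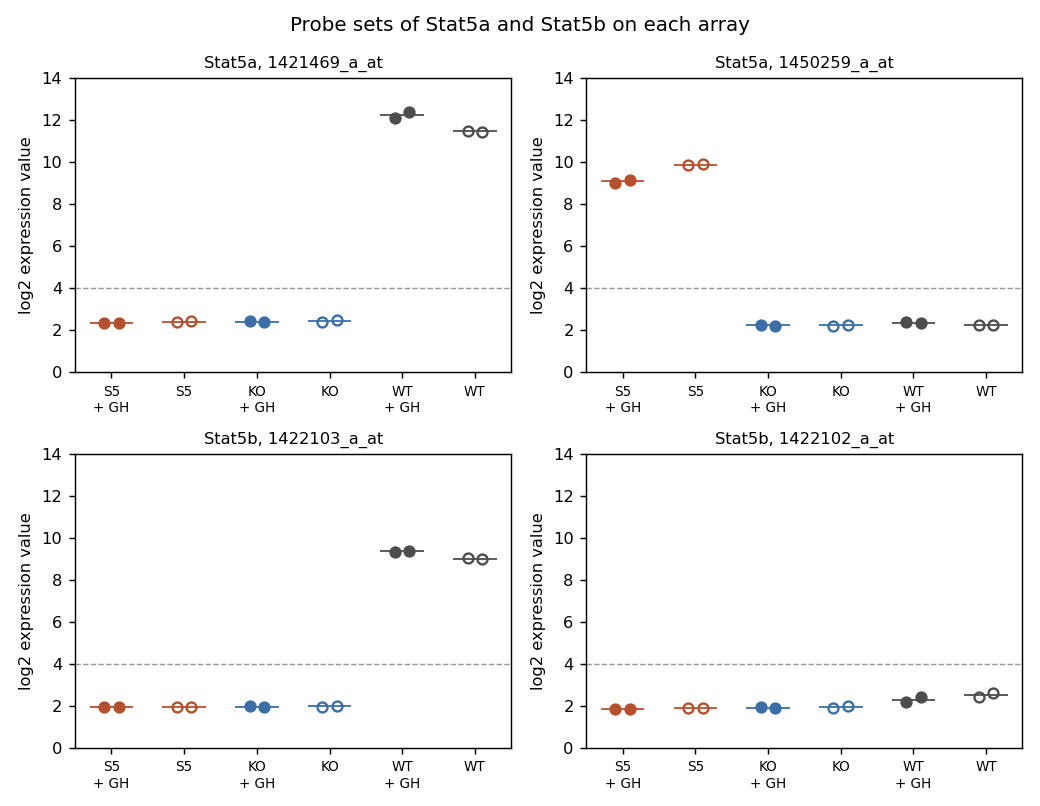
Log2 expression value of each Stat5a and Stat5b probe set on every array; filled points are arrays with growth hormone, open points without, the short lines are group means, and the dashed line is the bound of 4. Stat5a 1421469_a_at is high on WT arrays (11.45 to 12.39) and low on the others, while 1450259_a_at is high on S5 arrays (9.04 to 9.90) and low on the others.

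Growth hormone raised a probe set of each Stat5 gene in WT cells. Stat5a on 1421469_a_at was 12.25 ± 0.20 in WT + GH and 11.48 ± 0.04 in WT cells (SD, n = 2 each), a 1.70-fold rise (log2 difference 0.77, SE 0.08, limma adjusted p = 0.0043), with no overlap between the groups. Stat5b on 1422103_a_at rose 1.27-fold (log2 difference 0.34, SE 0.04, adjusted p = 0.00509). These were 2 of the 13 STAT probe sets, while 3.06 percent of all probe sets passed in this comparison. Fitted on the WT arrays alone, or with a prior that follows the mean level, the Stat5a rise gave adjusted p = 0.135 and 0.103, and the Stat5b rise 0.112 and 0.355.

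In S5 cells, the vector-read Stat5a signal went the other way. On 1450259_a_at it was 9.09 ± 0.07 in S5 + GH and 9.88 ± 0.03 in S5 cells, a 1.73-fold fall (log2 difference -0.79, SE 0.04, adjusted p = 0.000193). Because the probe sets differ, the opposite directions in S5 and WT cells belong to different transcripts, and each response is described on its own probe set. The fall was 1 of 3 STAT calls among the 13 in S5 cells, where 6.24 percent of all probe sets passed, and a fit on the S5 arrays alone gave adjusted p = 0.0531.

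Stat2, which joins IRF9 in the interferon-induced complex ISGF3, rose with growth hormone in S5 cells. Probe set 1421911_at read 8.04 and 8.06 in S5 + GH against 6.94 and 6.78 in S5 cells, 6.35 and 6.78 in KO + GH against 6.71 and 6.42 in KO cells, and 7.42 and 7.5 in WT + GH against 6.84 and 7.27 in WT cells. The 2 S5 + GH arrays were the highest of all 12, and the KO groups overlapped each other. The rise in S5 was 2.28-fold (log2 difference 1.19, SE 0.18, adjusted p = 0.0131), the difference in WT was 0.40 (adjusted p = 0.375) and that in KO was 0.001 (adjusted p = 0.9999). The S5 response exceeded the KO response by 1.19 (95% interval 0.57 to 1.80), which did not pass after adjustment (adjusted p = 0.122). The S5 and WT responses did not differ past the threshold either, and both WT + GH arrays lay above both WT arrays. Leaving out S5 replicate 1, S5 replicate 2 or S5 + GH replicate 1 moved the adjusted p of the S5 rise to 0.0509, 0.0791 and 0.0593.

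Between genotypes, the Stat2 calls lay among the hormone-treated groups. S5 + GH exceeded KO + GH 2.79-fold (log2 difference 1.48, SE 0.18, adjusted p = 0.00111), a call that all 22 alternatives kept. KO + GH was 0.89 below WT + GH (SE 0.18, adjusted p = 0.0139), and this call was lost without either WT + GH array, without KO + GH replicate 1 and with the compared groups alone (adjusted p 0.0557 to 0.0730). S5 + GH against WT + GH gave 0.59 (adjusted p = 0.0519). The group means ran from 8.05 in S5 + GH through 7.46 in WT + GH, 7.06 in WT and 6.86 in S5 to 6.57 in KO + GH and 6.57 in KO cells, and of the neighbours in that order that were tested none differed past the threshold. The other Stat2 probe set, 1450403_at, lay between 2.63 and 4.30 on all arrays and passed in no comparison.

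Stat3, the interleukin 6 family STAT, was lower in S5 cells than in the other genotypes on its highest probe set. Probe set 1460700_at stood at 8.68 and 8.48 in S5 + GH and 9.13 and 9.01 in S5 cells, against 10.04 and 9.93 in KO + GH, 9.76 and 9.71 in KO, 9.98 and 10.02 in WT + GH, and 9.997 and 9.89 in WT cells. All 4 S5 arrays lay below all 8 others. S5 was 1.59-fold below KO without hormone (log2 difference -0.66, SE 0.08, adjusted p = 0.00123) and 2.65-fold below it with hormone (-1.40, SE 0.08, adjusted p = 2.49e-05). Against WT, S5 was lower by 0.87 and 1.42 on the log2 scale without and with hormone (adjusted p = 0.000279 and 2.13e-05). KO against WT gave -0.21 and -0.02 (adjusted p = 0.156 and 0.9999). With the mean of all Stat3 probe sets, low ones included, the calls without hormone were lost. S5 minus KO was then -0.19 and S5 minus WT -0.21 (limma adjusted p = 0.347 and 0.23). Both S5 calls with hormone were kept in all 22 alternatives. The S5 arrays also had the largest 3′ to 5′ Gapdh difference. They had the lowest fibroblast marker mean, from markers that split as given above. The part of either in the lower Stat3 level was not tested.

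A further Stat3 probe set, 1426587_a_at, was also lowest in S5 cells. It read 5.75 and 5.60 in S5 + GH and 6.05 and 5.94 in S5 cells, against 6.51 and 6.94 in KO + GH, 6.64 and 6.27 in KO, 6.58 and 6.91 in WT + GH, and 6.63 and 6.66 in WT cells. With hormone, S5 was 1.04 below KO and 1.07 below WT (SE 0.18, adjusted p = 0.00557 and 0.00381), and the call against KO was lost with the compared groups alone (adjusted p = 0.0631). Without hormone, S5 was 0.65 below WT (adjusted p = 0.0388), a call lost in 10 of 20 alternatives, and S5 against KO was -0.46 (adjusted p = 0.153). The remaining Stat3 probe sets, 1424272_at and 1459961_a_at, were below 4 on all arrays and passed in no comparison.

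Growth hormone lowered Stat3 in S5 cells on 1460700_at. The fall was 1.40-fold (log2 difference -0.49, SE 0.08, adjusted p = 0.0172), while 1426587_a_at gave -0.32 (adjusted p = 0.474). KO cells gave 0.25 (adjusted p = 0.435) and WT cells 0.06 (adjusted p = 0.727) on 1460700_at. Set against the KO response, the S5 response differed by -0.74 (SE 0.12, adjusted p = 0.0379), which 16 of 22 alternatives lost, and the S5 minus WT response was -0.55 (adjusted p = 0.0728). Without S5 replicate 1 the fall in S5 gave adjusted p = 0.093, and a fit on the S5 arrays alone gave 0.164. With the mean of all Stat3 probe sets, the difference in S5 was -0.25 (limma adjusted p = 0.289).

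**Figure D2:**
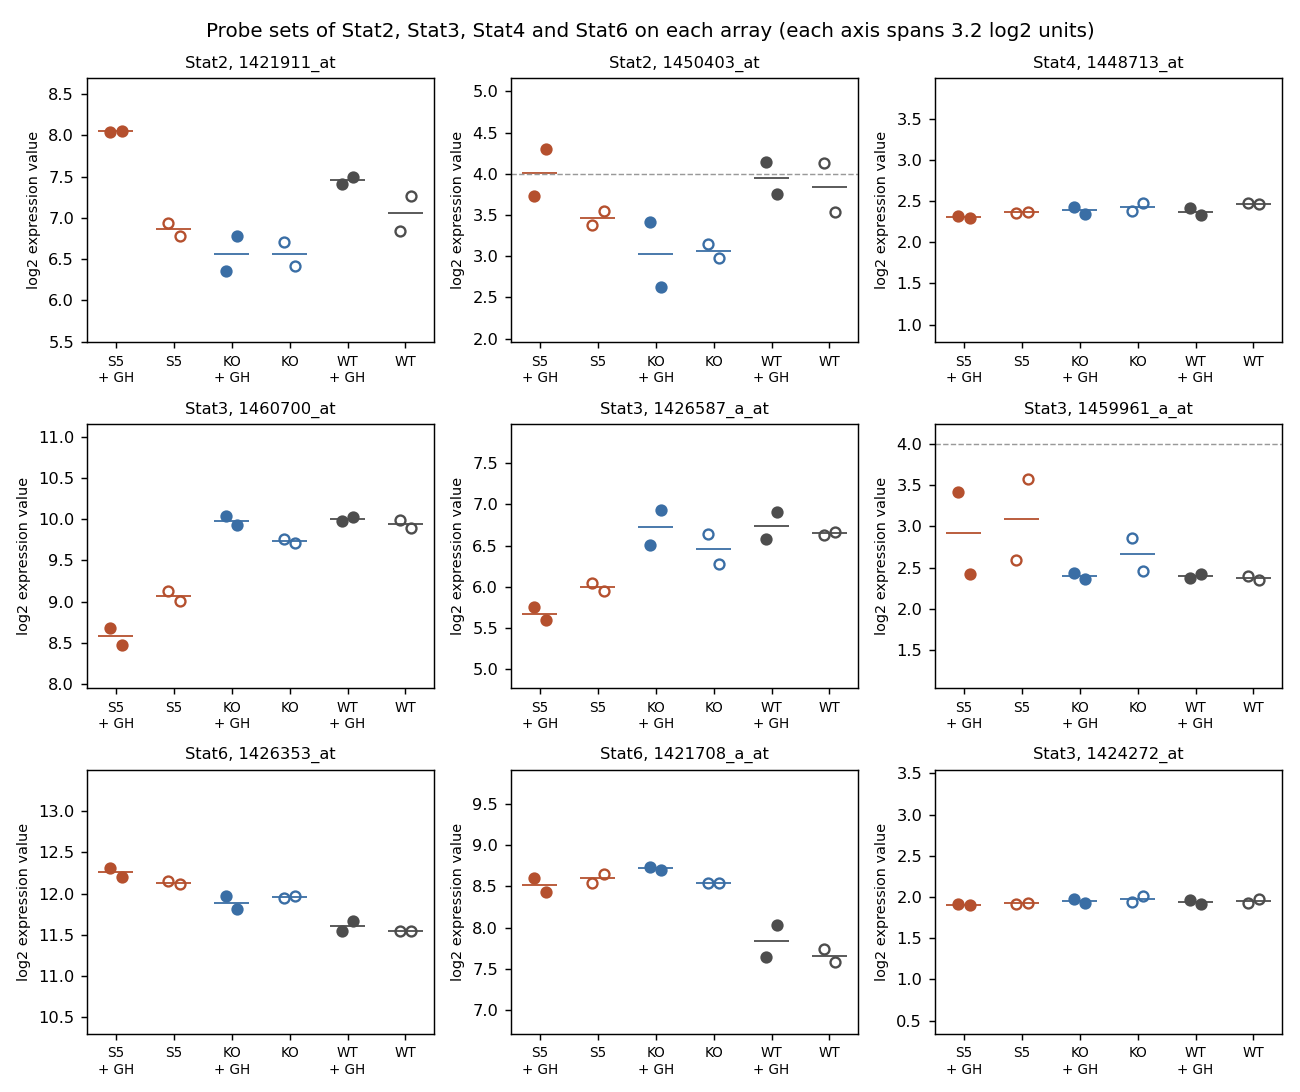
Log2 expression value of each Stat2, Stat3, Stat4 and Stat6 probe set on every array; filled points are arrays with growth hormone, open points without, short lines are group means, the dashed line is the bound of 4, and each vertical axis spans the same length of the log2 scale. The S5 + GH arrays are highest for Stat2 1421911_at (8.04 and 8.06) and lowest for Stat3 1460700_at (8.68 and 8.48), and both Stat6 probe sets are lowest on WT arrays.

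Stat6, the STAT of interleukins 4 and 13, was higher in S5 and KO cells than in WT cells on both probe sets. Probe set 1426353_at read 12.31 and 12.21 in S5 + GH, 12.15 and 12.11 in S5, 11.97 and 11.81 in KO + GH, and 11.95 and 11.97 in KO cells, against 11.54 and 11.67 in WT + GH and 11.55 and 11.55 in WT cells. Probe set 1421708_a_at read 8.60 and 8.43 in S5 + GH, 8.54 and 8.65 in S5, 8.74 and 8.70 in KO + GH, and 8.54 and 8.54 in KO cells, against 7.65 and 8.03 in WT + GH and 7.74 and 7.58 in WT cells. No WT array reached any S5 or KO array on either probe set. Without hormone, KO was above WT by 0.41 and 0.88 (adjusted p = 0.00525 and 0.00296), and S5 was above WT by 0.59 and 0.94 (adjusted p = 0.000641 and 0.00145), in the order of the probe sets given.

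With hormone, KO was above WT by 0.28 and 0.88 and S5 above WT by 0.65 and 0.68 on the same probe sets, and all 4 differences passed (adjusted p between 0.000304 and 0.0215). With the compared groups alone, 3 of the 4 lost their call: KO minus WT on both probe sets (adjusted p = 0.178 and 0.0597) and S5 minus WT on 1421708_a_at (0.0951). The KO difference of 1426353_at also lost it without WT + GH replicate 1 (adjusted p = 0.12) and without KO + GH replicate 1 (0.0949). S5 exceeded KO with hormone on 1426353_at by 0.37 (SE 0.07, adjusted p = 0.0062), whereas 1421708_a_at gave -0.21 (SE 0.12, adjusted p = 0.365). The call on 1426353_at was lost with the compared groups alone (adjusted p = 0.0983). It was also lost with the mean of the probe sets, where the difference was 0.08 (adjusted p = 0.579). Growth hormone within a genotype moved neither Stat6 probe set past the threshold, with differences between -0.08 and 0.18.

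Stat4, which carries interleukin 12 signals mainly in lymphocytes, was low on all arrays. Its probe set 1448713_at lay between 2.30 and 2.48, and no comparison passed. The lymphocyte markers were likewise below 4 on all arrays.

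**Figure D3:**
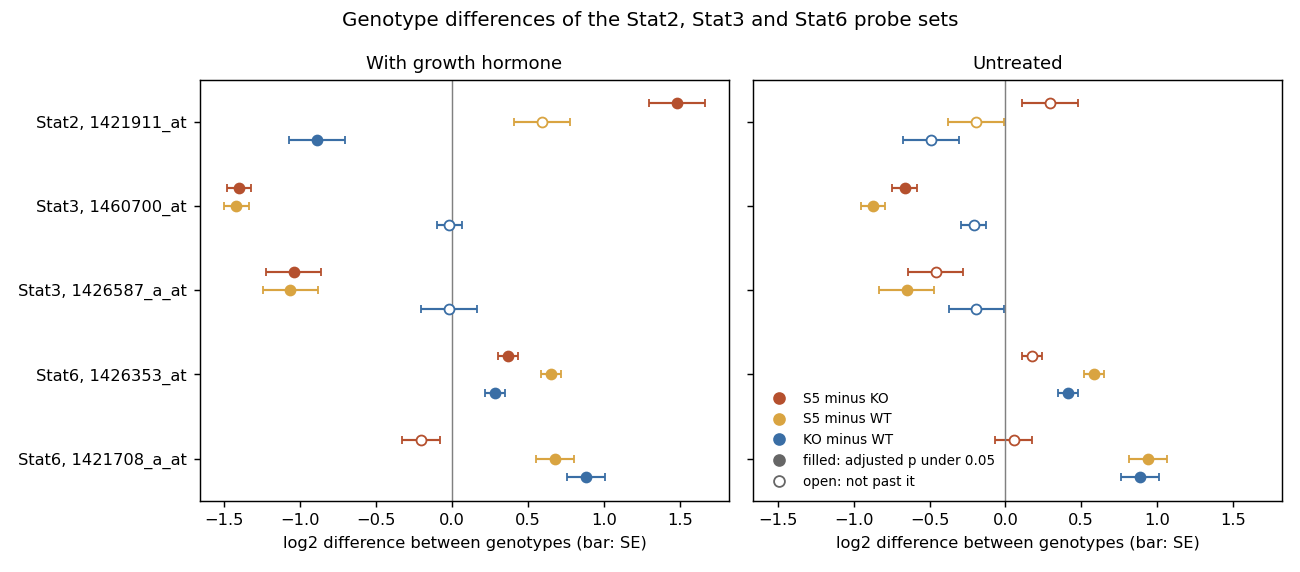
Log2 difference between genotypes (horizontal axis; bars are the SE of the fit) for the Stat2, Stat3 and Stat6 probe sets above 4 on every array, with growth hormone on the left and untreated on the right; filled points passed an adjusted p of 0.05. Stat3 lies left of 0 in S5 against both other genotypes (-1.40 and -1.42 with hormone on 1460700_at), and Stat6 lies right of 0 in S5 and KO against WT.

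Read over the whole family, the genotype calls stood beside large backgrounds. KO against WT without hormone called 5 of the 13 probe sets (2 higher, 3 lower), where 17.2 percent of all probe sets passed, and with hormone 6 of 13, where 19.4 percent passed. S5 against KO called 2 of 13 without hormone and 5 of 13 with it, beside 18.8 and 21.8 percent of all probe sets. S5 against WT called 8 of 13 in either condition, beside 24 and 27.6 percent. The targeted Stat5a and Stat5b probe sets are among these counts. Their differences between genotypes were set by the deletion and the vector, so the counts are not read as an excess over these shares. Apart from them, KO against WT called Stat6 without hormone, and Stat2 and Stat6 with it. S5 against WT called Stat3 and Stat6 in either condition, and S5 against KO called Stat3 without hormone. With hormone, S5 against KO called Stat2, Stat3, Stat5a and Stat6, so 3 genes other than the vector-borne gene were called there. The Stat6 call rested on 1426353_at alone, while the other Stat6 probe set had the opposite sign and did not pass. With the mean of the probe sets, Stat6 gave 0.08 (adjusted p = 0.579), so a difference of the gene as a whole is not shown.

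In KO cells, growth hormone moved none of the 13 STAT probe sets past limma's adjusted threshold. At an unadjusted p under 0.05 there was 1, Stat3 1460700_at (log2 difference 0.25), and 0.251 percent of all probe sets passed after adjustment. Every Stat4, Stat5a and Stat5b probe set lay below 4 in KO cells with and without hormone. So did the lower Stat2 probe set and the low Stat3 probe sets. No lack of response is read from these, because the gene is deleted or differences in that range are compressed. The result therefore rests on Stat2 1421911_at, Stat3 1426587_a_at and 1460700_at, and the Stat6 probe sets. Responses were also compared between genotypes in the same fit. KO minus WT responses passed for 2 of 13 (0.626 percent of all probe sets), S5 minus KO for 2 of 13 (1.05 percent) and S5 minus WT for 3 of 13 (2.12 percent). Those for Stat5a and Stat5b compare a measured transcript with cells in which the same probe set is low: the Stat5a 1421469_a_at response was lower in KO than in WT by 0.80 (adjusted p = 0.0374) and in S5 than in WT by 0.83 (adjusted p = 0.0157), and Stat5b 1422103_a_at by 0.37 in each (adjusted p = 0.0393 and 0.0191). The KO minus WT calls were lost in 16 of 22 alternatives for Stat5a and in 18 of 22 for Stat5b, and the S5 minus WT calls in 4 and 8 of 22.

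**Figure D4:**
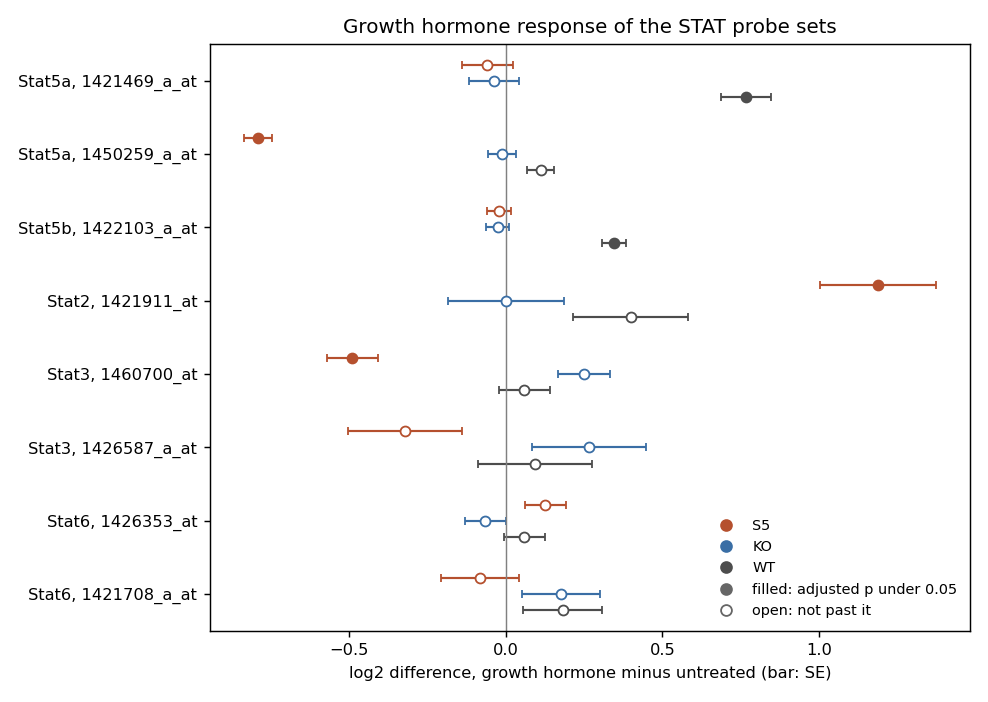
Log2 difference, growth hormone minus untreated, of 8 STAT probe sets in S5, KO and WT cells (bars are the SE of the fit); filled points passed an adjusted p of 0.05. The 5 filled points are Stat5a 1421469_a_at and Stat5b in WT (0.77 and 0.34) and, in S5, Stat5a 1450259_a_at (-0.79), Stat2 (1.19) and Stat3 1460700_at (-0.49).

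Upstream of the STATs stand the receptors and JAK kinases that feed them. Beside the counts for this and the following gene lists, growth hormone called 6.24 percent of all probe sets in S5, 0.251 percent in KO and 3.06 percent in WT cells, in either direction. Of 25 such genes measured, growth hormone raised 5 in WT, among them Il4ra (the interleukin 4 receptor chain that signals to STAT6, log2 difference 1.02), Ifnar1 (a type I interferon receptor chain, 0.73), Jak2 (0.42) and Tyk2 (the kinase paired with IFNAR1, 1.25), with adjusted p between 0.016 and 0.0281. The median difference of the 25 was 0.09 in WT, against -0.03 over all probe sets. In KO cells 1 passed, Osmr, the oncostatin M receptor (0.74, adjusted p = 0.0227). In S5 cells 0 of the 25 passed with limma, and 3 had an unadjusted p under 0.05. None of the 25 responses differed between genotypes past limma's adjusted threshold, while 9 (KO minus WT), 1 (S5 minus KO) and 7 (S5 minus WT) had an unadjusted p under 0.05. Jak2 itself gave 0.20 in S5 (adjusted p = 0.179) and 0.27 in KO (adjusted p = 0.258), and the 3 Jak2 responses did not differ past the threshold (adjusted p 0.453 to 1.0). Ghr changed by -0.02 to 0.04 with hormone in the 3 genotypes on its highest probe set.

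Receptor levels also differed between genotypes without hormone. KO cells had 3 of the 25 genes higher and 8 lower than WT, where 17.2 percent of all probe sets passed in either direction, with Osmr (-1.19, adjusted p = 9.61e-05), Il4ra (-1.78, 0.000262), the interleukin 13 receptor chain Il13ra1 (-3.42, 0.000497) and the interleukin 7 receptor Il7r (-5.02, 0.000807) at the smallest adjusted p. S5 cells had 7 higher and 3 lower than KO, where 18.8 percent of all probe sets passed, Lifr (1.78, adjusted p = 0.000446) rising and the interleukin 6 receptor chain Il6ra (-2.75, 0.000101) falling. Stat6 was thus higher in KO than in WT cells while its receptor chains Il4ra and Il13ra1 were lower, beside the macrophage marker difference given above, whose part was not tested.

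Among 18 inhibitors of JAK-STAT signalling, the classical STAT5-induced pair Cish and Socs2 rose in S5 and WT cells and did not pass in KO cells. Cish, a docking-site inhibitor of STAT5, changed by 5.75 in S5 (adjusted p = 7.12e-06), -0.37 in KO (adjusted p = 0.65) and 3.14 in WT cells (adjusted p = 0.000128), and its S5 response exceeded that of WT by 2.61 (SE 0.22, adjusted p = 0.00221). Its level was 9.25 ± 0.11 in S5 + GH and 3.50 ± 0.07 in S5 cells, against 8.14 ± 0.11 in WT + GH and 5.01 ± 0.23 in WT cells (SD, n = 2 each), so S5 cells stood 1.11 above WT with hormone (adjusted p = 0.00167) and started lower, with a difference of -1.50 (adjusted p = 0.000489) that reaches into the low range. Socs2, a brake on the growth hormone receptor, changed by 4.51 in S5 (adjusted p = 7.12e-06), 0.67 in KO (SE 0.125, adjusted p = 0.13) and 4.22 in WT cells (adjusted p = 6.09e-06). Tested directly, the KO minus WT response was -3.51 for Cish and -3.55 for Socs2 (limma adjusted p = 0.000904 and 0.000213). Its level without hormone was 8.92 ± 0.05 in S5, 4.66 ± 0.03 in KO and 7.21 ± 0.10 in WT cells (SD, n = 2 each), so the S5 cells started 1.71 above WT (adjusted p = 8.54e-05).

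Socs3, the inhibitor that STAT3 is best known to induce, rose in S5 cells, the cells with the lowest Stat3. Its level was 11.62 ± 0.37 in S5 + GH and 9.09 ± 0.45 in S5 cells (log2 difference 2.53, SE 0.30, adjusted p = 0.00446). The difference was -0.08 in KO (adjusted p = 0.975) and 1.10 in WT cells (adjusted p = 0.122), and the S5 response exceeded the KO response by 2.61 (SE 0.42, adjusted p = 0.0428). Of the 18, 5 rose and 1, the SUMO ligase Pias1 (-0.59, adjusted p = 0.00359), fell in S5 cells, 1 rose in KO (the phosphatase Ptpn1, 0.92, adjusted p = 0.029) and 5 rose in WT cells, beside 6.24, 0.251 and 3.06 percent of all probe sets called in S5, KO and WT cells. Those in WT included the phosphatase Ptpn2 (0.56, adjusted p = 0.00608) and the adaptor Sh2b3 (0.70, adjusted p = 0.0108). Sh2b3 responded less in S5 than in WT cells by 0.81 (adjusted p = 0.0289).

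**Figure D5:**
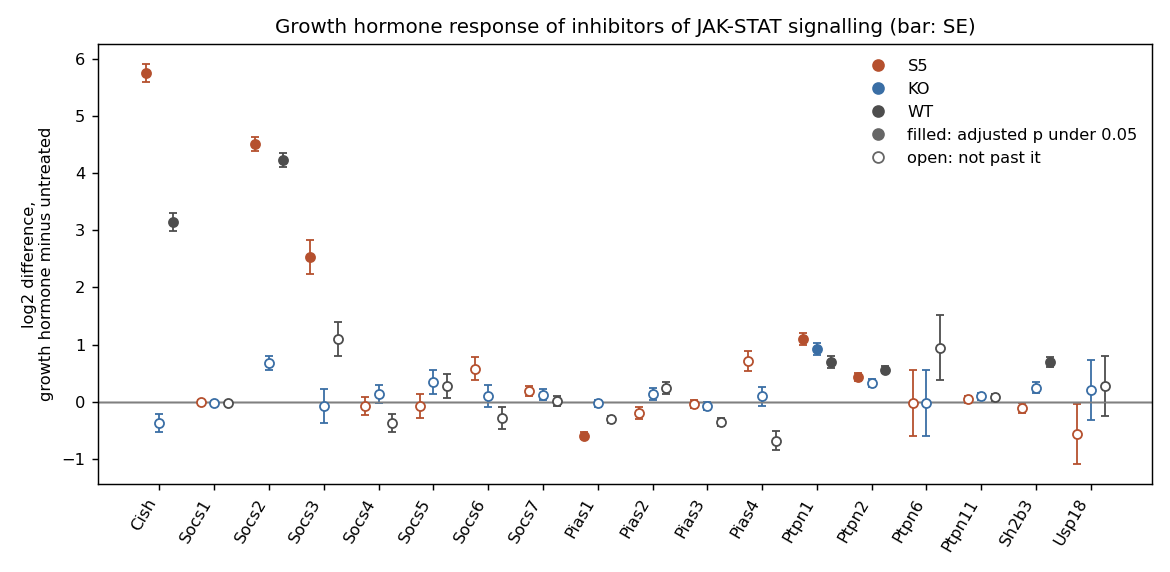
Log2 difference, growth hormone minus untreated, of 18 inhibitors of JAK-STAT signalling in S5, KO and WT cells (bars are the SE of the fit); filled points passed an adjusted p of 0.05. Cish (5.75 and 3.14) and Socs2 (4.51 and 4.22) passed in S5 and WT cells, Socs3 (2.53) in S5 cells, and Ptpn1 (0.92) in KO cells as well as in the others.

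Irf9, the DNA-binding partner of STAT2, did not pass the threshold with growth hormone in S5 cells, where the difference was 0.36 (SE 0.20, adjusted p = 0.457). Without hormone it was 1.17 lower in KO than in WT cells (adjusted p = 0.00666) and 0.67 lower in S5 than in WT cells (adjusted p = 0.0491). Among 8 partners and cofactors, the coactivator Ncoa1 rose in S5 (0.50, adjusted p = 0.0261) and fell in WT cells (-0.61, adjusted p = 0.0201), and these responses differed by 1.11 (SE 0.13, adjusted p = 0.00902).

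Of 16 genes known as targets of ISGF3, growth hormone raised 1 and lowered 2 in S5 cells, Bst2 (0.72, adjusted p = 0.04996) against Ifit2 (-0.94, 0.00952) and Ifit3 (-1.54, 0.014), which are interferon-induced antiviral genes. In KO cells 0 passed with limma and 2 had an unadjusted p under 0.05. In WT cells 6 rose, including the antiviral genes Mx1, Oasl1, Rsad2 and Ddx58. Of all probe sets, 6.24 percent passed in S5, 0.251 percent in KO and 3.06 percent in WT cells. Mx1 was 2.42 ± 0.02 in S5 + GH, 2.42 ± 0.02 in S5, 2.40 ± 0.05 in KO + GH and 2.44 ± 0.02 in KO cells, all low, against 6.67 ± 0.47 in WT + GH and 2.58 ± 0.18 in WT cells (adjusted p = 9.2e-05 in WT). Rsad2 stood at 11.11 ± 0.23 in WT + GH and 6.89 ± 0.57 in WT cells and at means of 2.28 to 2.35 in the other groups. The median difference of the list was -0.06 in S5, -0.03 in KO and 0.56 in WT cells. The macrophage marker mean was highest in WT cells. It was 9.25 on WT replicate 1 and 10.70 on WT replicate 2, against 10.70 and 10.77 on the WT + GH arrays. The part of these markers in the WT responses was not tested.

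Targets known for the other STATs were counted in the same way, beside the same shares of all probe sets (6.24 percent in S5, 0.251 percent in KO and 3.06 percent in WT cells). Of 12 STAT5 targets, Cish, Socs2 and the transcription factor Irf1 rose and the repressor Bcl6 fell in both S5 and WT cells, Irf1 by 2.13 and 3.09 (adjusted p = 0.002 and 0.000405) and Bcl6 with -1.22 and -1.88 (adjusted p = 0.000998 and 0.000145). In KO cells 0 of 12 passed with limma and 2 had an unadjusted p under 0.05. Of 14 STAT3 targets, 2 rose in S5 (Socs3 and Bcl3), 1 in KO (Bcl3) and 4 in WT cells. Bcl3, a cofactor of NF-kappa-B, rose in each genotype, with differences of 4.51 in S5, 3.98 in KO and 3.66 in WT cells (adjusted p = 0.00176, 0.0217 and 0.0057), from means below 4 in untreated S5 and KO cells. Cebpd, a transcription factor of the acute phase, rose in WT cells (1.54, adjusted p = 0.000402) and its response was 1.88 lower in S5 and 1.71 lower in KO than in WT cells (adjusted p = 0.00105 and 0.00311).

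Of 10 STAT6 targets, 6 were below 4 on every array, and growth hormone raised 1 in S5 and 3 in WT cells. The chemokine Ccl17 rose in both (2.04 and 2.83, adjusted p = 0.0204 and 0.00913), and Ccl22 rose in WT cells to 7.29 ± 0.31, against 1.92 ± 0.03 without hormone (adjusted p = 1.32e-06). In KO cells 0 passed with limma and 2 had an unadjusted p under 0.05. Of 6 STAT4 targets, Il18rap, an interleukin 18 receptor chain, rose in S5 (1.37, adjusted p = 0.0034) and in WT cells (2.11, adjusted p = 0.000681). In KO cells Il18rap changed by 0.79 (limma adjusted p = 0.137). No difference between its responses in the genotypes passed (adjusted p 0.0578 to 0.439). Several genes stand in more than 1 of these lists, Cish, Socs2, Socs3, Irf9 and Il4ra among them.

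On the chromosome, Stat3 is the gene next to Stat5a, and Ghdc lies on the far side of Stat5b. In KO against WT cells without hormone, Stat3 gave -0.21 (adjusted p = 0.156), Cavin1, next after Stat3, gave 0.28 (adjusted p = 0.12), and Ghdc gave 0.73 (SE 0.17, adjusted p = 0.0235). Stat5a and Stat5b were at least 179-fold and at least 32.3-fold lower in the same comparison, and Stat3, Cavin1 and Ghdc differed by less. Rab5c, Naglu, Coasy and Hsd17b1, also nearby, passed in that comparison and are given under the other observations. Gene order comes from RefSeq, assembly GRCm38.p6.

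The profiles most like each STAT probe set over the 12 arrays were found by the smallest root mean square difference on the log2 scale after centring each on its own mean, as a description. For the wild-type Stat5a probe set they were Eif2s3y (0.35), C5ar1 (0.44) and Tyrobp (0.53), and for Stat5b Olr1 (0.15), Zic1 (0.19) and Plac8 (0.24). Tyrobp is in the macrophage list. Nearest to the vector-read Stat5a profile were Efhd1 (0.17), Speer4cos (0.25) and Rgs5 (0.27), all high in S5 cells alone. Stat2 1421911_at lay closest to Nmb, Elovl1 and Plekhf1 (0.20 to 0.21), Stat3 1460700_at to Hs2st1, Ppp2r1b and Mcfd2 (0.11 to 0.13), and Stat3 1426587_a_at to Cdr2l, Ppp1cc and Ppp1r7 (0.12 to 0.13). For Stat6 they were Ano10, Hyal2 and Eif4ebp2 (0.08 to 0.11) on 1421708_a_at and Snx2, Dop1b and Pkd1 (0.08) on 1426353_at. Stat2 1450403_at, mostly low, lay closest to Kif1b, Pold3 and Ezh2 (0.25 to 0.27). These distances do not rank likeness between probe sets, because the probe sets' own root mean square spreads differ. That spread was 4.47 for wild-type-read Stat5a and 3.41 for vector-read Stat5a and for Stat5b. It was 0.54 for Stat2 1421911_at and Stat3 1460700_at, and 0.47 for Stat2 1450403_at. For Stat3 1426587_a_at and Stat6 1421708_a_at it was 0.42, and for Stat6 1426353_at 0.26.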

How the data were processed

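Expression was measured on 12 Affymetrix arrays, 2 per group. The authors deposited expression values, taken here as log2, for 45101 probe sets per array. GCOS and RMA are named, without settings, in the submitters' processing notes. The values range from 0.989 to 15.95, and no source used here says how they were scaled further. Probe sets were named through the platform annotation, which lists 34945 with 1 gene, 932 with several and 9160 with none. The 64 Affymetrix controls were left out, and the other 45037 were tested.

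A model with a mean per group (limma 3.58.1, R 4.3.3) left 6 residual degrees of freedom, and eBayes added 1.11 prior degrees of freedom. P-values of its two-sided moderated test were adjusted by the Benjamini-Hochberg method over the 45037 probe sets of each of 12 comparisons. Comparisons within a genotype or treatment share arrays. SDs were taken over the 2 arrays of each group, which the design text calls biological duplicates, and SEs and 95% intervals come from the fit. Estimates of planted differences were checked on simulated data with independent normal noise, which does not settle the rate of false calls in the real data.

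The members, the gene lists and the bound of 4 were chosen with earlier results of these data known. All STAT probe sets are named. In a list, a gene is represented by its probe set with the highest mean, and up to 4 genes with the smallest adjusted p per comparison are named, besides Ghr, Jak2, Cish, Socs2, Socs3 and Irf9. Other genes, Bst2 and a count of 5 or fewer included, were named after their values were seen. Replicate numbers were not taken as pairs: over 15 pairs of groups, deviations of same-numbered arrays correlated with r between -0.38 and 0.18, and 1 exceeded 0.1. Promoter windows are RefSeq's, build GRCm38.p6.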

Additional observations from a re-analysis of the deposited data

Results flagged for a closer look

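For 7 responses the test of the difference between genotypes passed after adjustment. The Stat3 1460700_at response was lower in S5 than in KO cells, with log2 differences of -0.49 in S5 and 0.25 in KO and a response difference of -0.7395. Stat5a 1421469_a_at, which reads the wild-type transcript, responded less in KO than in WT cells (-0.8049) and less in S5 than in WT cells (-0.8262), and set against a level of 4 for the low groups each difference was -0.77. Stat5a 1450259_a_at, which reads the vector transcript, had response differences of -0.7785 between S5 and KO cells and -0.9012 between S5 and WT cells, or -0.79 against a level of 4. Stat5b 1422103_a_at gave -0.3711 for KO minus WT and -0.366 for S5 minus WT, or -0.34 against a level of 4. The Stat5a and Stat5b differences therefore set a measured change beside groups in the low range.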

How the results depend on the processing

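The number of the 6 STAT genes past the threshold was recomputed in 10 other settings and with each of the 12 arrays left out. Growth hormone in WT called 2 genes, but 0 with only the groups compared, 0 with a trended prior and 1 with the mean of the probe sets. In S5 the hormone called 3 genes, but 1 with only the groups compared and 1 to 3 with an array left out. The response KO minus WT called 2, but 0 with the replicate block, only the groups compared, a trended prior, array weights or only probe sets with a mean of at least 4, 1 with median centring, a floor of 4 or the mean of the probe sets, and 0 to 2 with an array left out. The response S5 minus KO called 2, but 0 with a trended prior, 1 with only the groups compared, the filter, the floor, array weights, the highest probe set or the mean, and 1 to 2 with an array left out. The response S5 minus WT called 2, but 0 with a trended prior, 1 with the filter or the mean, and 1 to 2 with an array left out. KO minus WT with hormone called 4, but 2 with only the groups compared, and S5 minus KO without hormone called 2, but 1 with the highest probe set or the mean. The replicate block kept the count of genes called within 1.5 times in the other comparisons. With the mean of the probe sets, Stat5a for S5 minus KO turned to 3.81 without and 3.41 with hormone, because the vector-read probe set enters that mean. Median centring lowered all differences of S5 minus KO with hormone (median -0.11, against -0.02) and moved the split of all calls there to 33.3 percent higher, against 52.9 percent, and in S5 with hormone to 41.9 percent, against 54.7 percent. Precision is limited by 2 arrays per group, and values below 4 compress differences.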

Other observations

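Other neighbours of the Stat5 genes, chosen after their values were seen, differed between KO and WT cells without hormone. In that comparison 17.2 percent of all probe sets passed. Higher in KO were Rab5c, a small GTPase of endosomes, by 0.27 (SE 0.04, adjusted p = 0.00568), Naglu, a lysosomal enzyme, by 0.91 (SE 0.15, adjusted p = 0.00641) and Coasy, which makes coenzyme A, by 1.27 (SE 0.26, adjusted p = 0.0144). Hsd17b1, an enzyme of oestrogen synthesis, was lower in KO, at a mean of 3.35 in KO and 4.22 in WT cells (log2 difference -0.87, SE 0.05, adjusted p = 3.82e-05), levels near or within the low range. S5 minus KO without hormone gave -0.47 for Rab5c (adjusted p = 0.00029), -0.56 for Naglu (adjusted p = 0.0424) and -0.49 for Coasy (adjusted p = 0.315). Atp6v0a1, a subunit of the vacuolar proton pump in the same neighbourhood, was 0.91 higher in S5 than in KO cells (SE 0.11, adjusted p = 0.00117), while KO minus WT was -0.03 (adjusted p = 0.9999).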
